A study of Ovis aries with 12 samples.

Results

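FOXO transcription factors, muscle ubiquitin ligases and autophagy genes were followed in the longissimus dorsi of Tan sheep fed succinate. The 10 genes were chosen by name, but with earlier results of these data known. They were the FOXO factors FOXO1, FOXO3 and FOXO4, the ubiquitin ligases FBXO32 and TRIM63, and the autophagy genes GABARAPL1, MAP1LC3B, SQSTM1, BNIP3 and ULK1. All 10 were found by gene identifier among 21257 genes in the table, and all 10 passed the filter on low counts that left 13319 genes for testing. The study addressed how dietary succinate, an intermediate of the tricarboxylic acid cycle, bears on muscle fibres and meat quality in this breed.

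Tan sheep (Ovis aries) of 5 months received a basal diet (control) or one of 3 succinate diets. The added share was 0.5% in SUC1, 1% in SUC2 and 2% in SUC3. The animals numbered 36, with 9 per diet, and were penned singly through 10 days of adaptation and 60 days of trial. Each diet had 3 sequenced libraries of the back muscle longissimus dorsi, 12 in all. Whether a library is a single sheep or a pool is not stated. The p-values therefore measure the spread between these libraries, which may be technical in part.

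FOXO factors are held out of the nucleus when insulin and IGF1 activate AKT. When that signal falls, they enter the nucleus and raise genes of protein breakdown in rodent muscle. FBXO32 (atrogin-1) and TRIM63 (MuRF1), called atrogenes because both rise in wasting muscle, pass proteins to the proteasome. Autophagy instead encloses cargo in a membrane that fuses with the lysosome: ULK1 starts it, MAP1LC3B and GABARAPL1 build into the membrane, SQSTM1 brings ubiquitin-tagged cargo and BNIP3 marks mitochondria.

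Library totals were 15742428 to 18564057 counts, with a count for 15137 to 15617 genes in each library. Of 12 markers of skeletal muscle fibres, 11 were in the table, and all 11 passed the filter on low counts. Levels are CPM, counts per library size after scaling by the trimmed mean of M-values (TMM). The summed level of the fibre markers was 159823 to 254975 CPM over the 12 libraries. On the second principal component, with 15.8% of the variance, SUC2 replicate 2 (55.1) and SUC3 replicate 1 (-52.2) lay apart from the other libraries. A count floor of 3 corresponded to 0.162 to 0.191 CPM, and all 10 genes lay far above it in every library. Intervals from such floors cover counting error only.

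At 1% succinate 2 of the 10 genes rose against control, FOXO1 and GABARAPL1, and none fell (edgeR quasi-likelihood test, Benjamini-Hochberg adjusted p under 0.05). Over all genes tested 1.43% passed in that comparison, and 0.773% passed as higher. The diet and control libraries did not overlap, with the diet higher, for 5 of the 10 genes, against 11.5% of all genes. The log2 fold change was positive for 7 of the 10, against 49.8% of all genes, and the median over the 10 was 0.84, against -0.0027 over all genes. At 0.5% and at 2% succinate 0 of the 10 passed, where 0% and 0.00751% of all genes did. An unadjusted p under 0.05 was reached by 2 of the 10 in SUC1, 5 in SUC2 and 3 in SUC3, against 7.61%, 17.9% and 12.4% of all genes. Positive log2 fold changes numbered 9 of the 10 in SUC1 and 7 in SUC3, against 48.3% and 49% of all genes, with medians of 0.38 and 0.46. DESeq2 called 0 of the 10 in SUC1, 3 in SUC2 (FOXO1, GABARAPL1 and BNIP3) and 0 in SUC3, against 0.526%, 6.31% and 1.81% of all genes. All 3 comparisons share the control libraries.

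**Figure D1:**
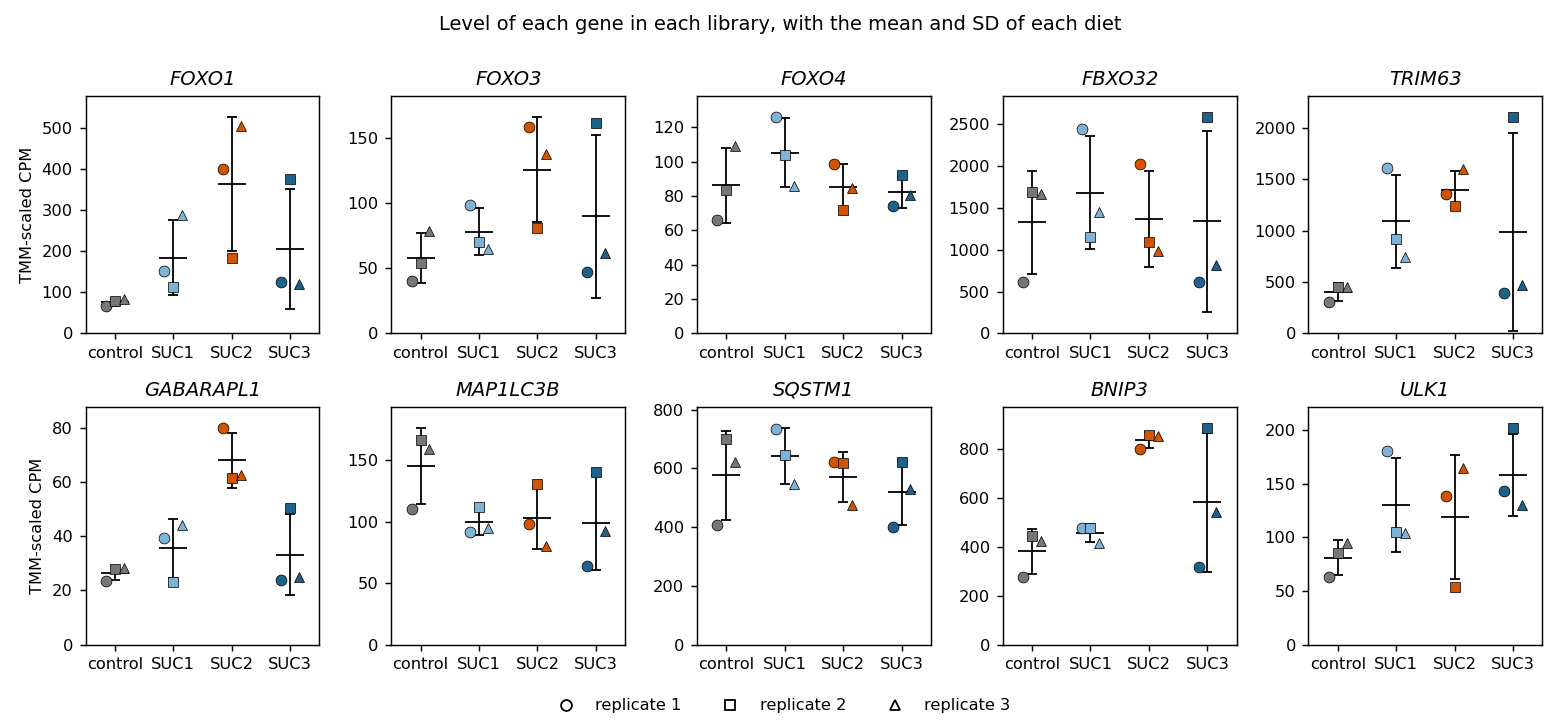
Level of each gene (TMM-scaled CPM, linear axis from 0) in every library by diet, in order of succinate content; symbols mark the replicate, and the bar and whiskers give the mean and SD of 3 libraries. FOXO1 and GABARAPL1 are highest on average in SUC2, and in SUC3 replicate 2 stands above the other 2 libraries for most genes.

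FOXO1, the FOXO factor that also governs fuel choice in muscle, lies on chromosome 10 at 22150339 to 22242732 on the plus strand, in the coordinates of the deposited table. Its level was 66.3, 78.5 and 82.6 CPM in the control libraries, 151, 113 and 288 CPM in SUC1, 400.5, 184 and 503 CPM in SUC2, and 124, 374 and 119.6 CPM in SUC3. Every succinate library lay above every control library. FOXO1 averaged 362 ± 163 CPM in SUC2 and 75.8 ± 8.46 CPM in control (SD, n = 3 each), a 4.78-fold difference. The log2 fold change was 2.26 ± 0.49 (SE; edgeR adjusted p = 0.0423). In SUC1 it was 1.28 ± 0.48 (edgeR adjusted p = 0.518) and in SUC3 1.44 ± 0.48 (edgeR adjusted p = 0.254), neither of which passed. Libraries did not overlap and were higher than control for 7.4% of all genes in SUC1 and 9.15% in SUC3. SUC2 exceeded SUC1 by 0.98 ± 0.47 on the log2 scale with overlapping libraries (edgeR adjusted p = 0.599), so the diets were not separated from one another.

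The FOXO1 call in SUC2 was made under 14 of 22 alternative settings, with edgeR, DESeq2 or limma adjusted p from 0.000131 to 0.154 and log2 fold changes from 1.95 to 2.58. Among single libraries left out, it was lost without control replicate 1, 2 or 3, without SUC1 replicate 1 or 2, and without SUC2 replicate 1 or 3. Without SUC2 replicate 2 and SUC3 replicate 1, the libraries apart on the second component, the log2 fold change was 2.58 (edgeR adjusted p = 0.0440). At the ends of the first component, it was 1.95 without SUC2 replicate 3 and 2.28 without control replicate 2. Neither passed (edgeR adjusted p = 0.154 and 0.152). Over the 12 libraries the highest level was 7.58 times the lowest, the widest ratio among the 10 genes. Its biological coefficient of variation was 0.401, above that of 97% of the 500 genes nearest in level.

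FOXO3, in mice a driver of both atrogenes and autophagy genes, lies on chromosome 8 at 28807686 to 28926060 on the minus strand. It was at 40.5, 54.0 and 78.7 CPM in control, 98.7, 70.6 and 64.8 CPM in SUC1, 159, 80.7 and 138 CPM in SUC2, and 46.8, 162 and 61.5 CPM in SUC3. The SUC2 libraries lay above all control libraries, the lowest of them by little, and the single highest value was SUC3 replicate 2. The log2 fold change in SUC2 was 1.12 ± 0.42 (edgeR adjusted p = 0.177), and it did not pass. The values in SUC1 and SUC3 were 0.43 and 0.64 (edgeR adjusted p = 0.892 and 0.555).

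FOXO4, a FOXO factor that AKT restrains like FOXO1 and FOXO3, lies on the X chromosome at 63811419 to 63818813 on the plus strand. It averaged 86.2 ± 21.8 CPM in control, 105 ± 19.99 CPM in SUC1, 85.1 ± 13.3 CPM in SUC2 and 82.2 ± 8.97 CPM in SUC3 (SD, n = 3 each). Its log2 fold changes were 0.29, -0.02 and -0.07 in SUC1, SUC2 and SUC3, with edgeR adjusted p of 0.839, 0.974 and 0.921. With limma on log2 FPKM in place of edgeR on counts, the SUC2 and SUC3 values were slightly positive. FOXO6, outside the set, had 69 to 366 counts per library and a log2 fold change of 0.21 in SUC2 (edgeR adjusted p = 0.869).

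Per length, in FPKM (fragments scaled for gene length and library total), FOXO1 averaged 64.7 ± 27.8 FPKM in SUC2 and 13.1 ± 2.84 FPKM in control (SD, n = 3 each). FOXO3 averaged 34.6 ± 10.6 FPKM in SUC2 and 15.5 ± 6.02 FPKM in control, and FOXO4 24.3 ± 3.49 FPKM in SUC2 and 23.9 ± 7.63 FPKM in control. By mean FPKM, FOXO1 was in place 5 of the 10 genes in SUC2 and in place 10 in control.

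TRIM63, a ligase that tags myofibrillar proteins in rodent muscle, lies on chromosome 2 at 240759872 to 240776080 on the plus strand. It was at 305, 453 and 455 CPM in control, 1605, 917 and 745 CPM in SUC1, 1361, 1237 and 1595 CPM in SUC2, and 390.2, 2104 and 466 CPM in SUC3. All libraries of SUC1 and SUC2 lay above all control libraries, while in SUC3 only replicate 2 stood far above them. TRIM63 averaged 1398 ± 182 CPM in SUC2 and 404 ± 86.0 CPM in control (SD, n = 3 each). The log2 fold change of 1.79 ± 0.53 did not pass (edgeR adjusted p = 0.102), nor did those of 1.43 ± 0.52 in SUC1 (edgeR adjusted p = 0.517) and 1.29 ± 0.52 in SUC3 (edgeR adjusted p = 0.344). Its SUC2 value passed under 3 of 22 alternatives, among them the fit to SUC2 and control libraries alone and the fit without SUC3 replicate 2.

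FBXO32, the F-box subunit of a ubiquitin ligase and the other classical atrogene, lies on chromosome 9 at 29355514 to 29392488 on the plus strand. It was at 619.7, 1690 and 1671 CPM in control, 2444, 1158 and 1448 CPM in SUC1, 2023, 1092 and 989 CPM in SUC2, and 615, 2586 and 816 CPM in SUC3. The groups overlapped in every diet. Its log2 fold changes were 0.34 ± 0.53 in SUC1, 0.04 ± 0.53 in SUC2 and 0.01 ± 0.53 in SUC3, with edgeR adjusted p of 0.955, 0.976 and 0.994. With these errors a sizeable change in either direction would not be detected. Without control replicate 1 the SUC2 value was -0.30 and the SUC3 value -0.33 (edgeR adjusted p = 0.850 for both). Without SUC3 replicate 2 the SUC3 value was -0.89 (edgeR adjusted p = 0.506). Both ligases varied among libraries more than most genes of like level, with biological coefficients of variation of 0.446 for FBXO32 and 0.435 for TRIM63.

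GABARAPL1, an ATG8-family protein of the autophagosome membrane, lies on chromosome 3 at 205282609 to 205293340 on the minus strand. It was at 23.5, 27.8 and 28.2 CPM in control, 39.2, 23.1 and 44.1 CPM in SUC1, 79.8, 61.5 and 62.8 CPM in SUC2, and 24.0, 50.4 and 25.1 CPM in SUC3. The 3 SUC2 libraries were the highest of all 12. GABARAPL1 averaged 68.0 ± 10.2 CPM in SUC2 and 26.5 ± 2.59 CPM in control (SD, n = 3 each), a 2.57-fold difference with a log2 fold change of 1.36 ± 0.30 (edgeR adjusted p = 0.0423). In SUC1 and SUC3 the log2 fold changes were 0.42 and 0.32 (edgeR adjusted p = 0.826 and 0.684), with overlapping libraries.

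The GABARAPL1 call in SUC2 was made under 12 of 22 alternatives, with adjusted p of edgeR, DESeq2 or limma from 0.00111 to 0.148 and log2 fold changes from 1.23 to 1.43. Among single libraries left out, it was lost without control replicate 1, 2 or 3, without SUC1 replicate 1, without SUC2 replicate 1, 2 or 3, and without SUC3 replicate 3. Without SUC2 replicate 2 and SUC3 replicate 1 together the log2 fold change was 1.43 (edgeR adjusted p = 0.0526). Set against each other, SUC3 was lower than SUC2 by 1.04 ± 0.29 on the log2 scale and SUC2 was higher than SUC1 by 0.94 ± 0.29. Neither passed (edgeR adjusted p = 0.202 and 0.429), though libraries did not overlap in either pair, in the same direction as 7.46% of all genes in the first pair and 7.23% in the second. Without SUC3 replicate 2 the difference between SUC3 and SUC2 reached -1.47 (edgeR adjusted p = 0.0381), and that between their TRIM63 levels -1.71 (edgeR adjusted p = 0.0455), where 0.486% of all genes passed. With all 12 libraries 0.015% of all genes passed for SUC3 against SUC2 and 0% for SUC2 against SUC1.

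BNIP3, a mitophagy receptor that also responds to hypoxia, lies on chromosome 22 at 50239839 to 50250390 on the minus strand. It was at 277, 445 and 425 CPM in control, 478, 475 and 416 CPM in SUC1, 802, 858 and 852 CPM in SUC2, and 319, 884 and 544 CPM in SUC3. The SUC2 libraries were close together and above every control and SUC1 library, and SUC3 replicate 2 was the highest of all. BNIP3 averaged 837 ± 30.9 CPM in SUC2 and 382 ± 91.9 CPM in control (SD, n = 3 each). The log2 fold change of 1.13 ± 0.30 did not pass (edgeR adjusted p = 0.0767), but it did by DESeq2 and without SUC3 replicate 1 or 2. Per length BNIP3 was the most abundant of the 10 genes in SUC2, at 533 ± 27.6 FPKM, against 238 ± 81.5 FPKM in control.

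MAP1LC3B, the LC3 protein most used as an autophagosome marker, lies on chromosome 14 at 12514862 to 12529695 on the plus strand. It averaged 145 ± 30.6 CPM in control, 99.5 ± 10.8 CPM in SUC1, 103 ± 25.5 CPM in SUC2 and 99.1 ± 38.6 CPM in SUC3 (SD, n = 3 each). Its log2 fold changes of -0.54, -0.50 and -0.55 in SUC1, SUC2 and SUC3 did not pass (edgeR adjusted p = 0.695, 0.375 and 0.433). A similar locus in the table, LOC105604794, held 4.06% to 6.02% as many counts as MAP1LC3B, so reads shared between the copies make the MAP1LC3B level slightly uncertain.

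SQSTM1 (p62), the cargo receptor, lies on chromosome 5 at 1195384 to 1281782 on the minus strand, where 3 genes of the opposite strand overlap it. Whether the counting kept the strand is not stated, which leaves its level uncertain. It averaged 575 ± 151 CPM in control, 642 ± 94.2 CPM in SUC1, 571 ± 84.1 CPM in SUC2 and 518 ± 111 CPM in SUC3 (SD, n = 3 each), with log2 fold changes of 0.16, -0.01 and -0.15 (edgeR adjusted p = 0.952, 0.984 and 0.832). Its highest library was 1.83 times its lowest, the narrowest ratio of the 10 genes, while the biological coefficient of variation was 0.219 for SQSTM1 and 0.202 for FOXO4.

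ULK1, the kinase that starts autophagy, lies on chromosome 17 at 45224456 to 45247374 on the minus strand. It was at 63.2, 85.0 and 94.9 CPM in control, 181, 105 and 104 CPM in SUC1, 139, 53.7 and 165 CPM in SUC2, and 143, 202 and 129.9 CPM in SUC3. All SUC1 and SUC3 libraries lay above all control libraries, and SUC2 replicate 2 was the lowest library of the 12. The log2 fold changes were 0.68 ± 0.36, 0.56 ± 0.36 and 0.97 ± 0.36 in SUC1, SUC2 and SUC3 (edgeR adjusted p = 0.708, 0.459 and 0.303), and none passed. Over the succinate content ULK1 had the smallest p of the 10, with a slope of 0.40 ± 0.17 per percent on the log2 scale (edgeR adjusted p = 0.428), and 0.00751% of all genes passed that test. In the joint test of any difference among the 4 diets 0 of the 10 passed, against 0.0225% of all genes, and GABARAPL1 came nearest (edgeR adjusted p = 0.117).

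**Figure D2:**
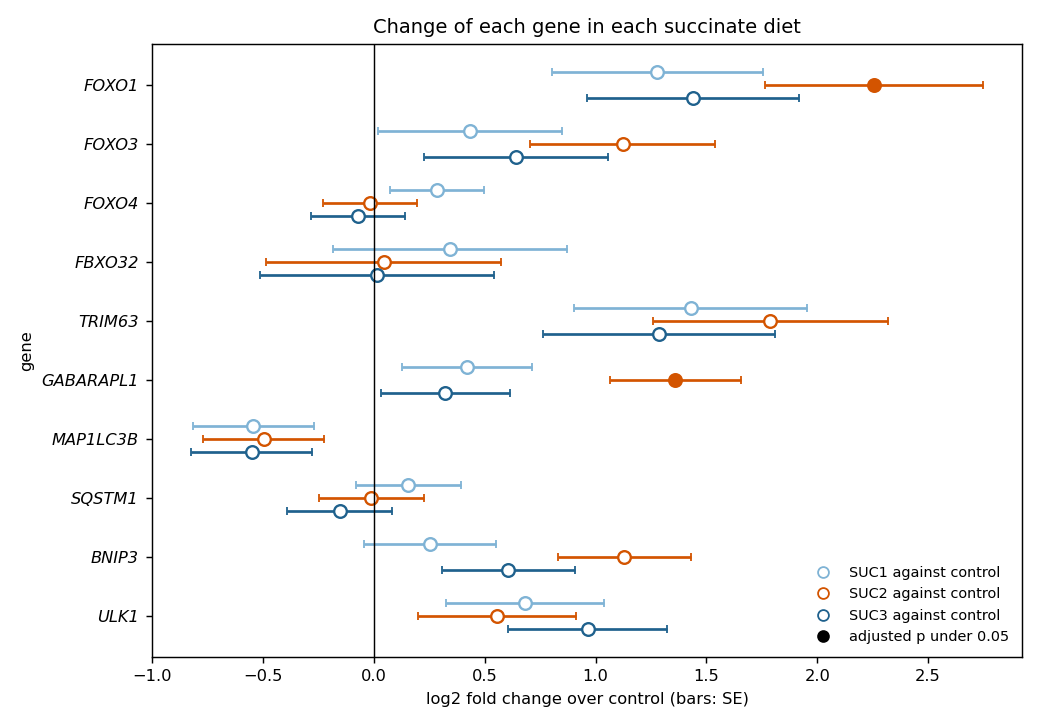
log2 fold change of each gene over control in SUC1, SUC2 and SUC3, with bars of 1 SE from the edgeR fit to all 12 libraries; filled points passed an adjusted p of 0.05. FOXO1 (2.26) and GABARAPL1 (1.36) in SUC2 are the filled points, and MAP1LC3B lies below 0 in every diet.

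In whole muscle, fewer cells of a type and less RNA per cell cannot be told apart. Markers of other cells were summed beside these results, and 0 genes of any marker list passed in SUC1, SUC2 or SUC3. The 9 tested of 10 macrophage and leukocyte markers summed to 48.2 to 75.6 CPM in SUC2 and 24.7 to 35.3 CPM in control, with 9 positive log2 fold changes. Adipocyte markers (6 of 6 tested) summed to 177 to 316 CPM in SUC2 and 78.3 to 118 CPM in control, and fibroblast markers (8 of 8) to 951 to 1105 CPM in SUC2 and 473 to 827 CPM in control. Endothelial markers (7 of 7) summed to 281 to 588 CPM in SUC2 and 283 to 332 CPM in control, and smooth muscle and pericyte markers (6 of 6) to 305 to 534 CPM in SUC2 and 438 to 569 CPM in control. Schwann cell markers (5 of 5) summed to 134 to 181 CPM in SUC2 and 68.5 to 192 CPM in control, and satellite cell markers (4 of 4) to 6.09 to 18.0 CPM in SUC2 and 3.54 to 15.1 CPM in control. Erythroid markers (1 of 4 tested) summed to 0.555 to 8.21 CPM in SUC2 and 0.516 to 5.59 CPM in control. The sums of the macrophage, adipocyte and fibroblast lists did not overlap between SUC2 and control. Adipocyte sums of 222 to 276 CPM in SUC1 and 153 to 411 CPM in SUC3 also lay above all control libraries, as did fibroblast sums of 899.9 to 1879 CPM in SUC1 and 1037 to 1476 CPM in SUC3. Macrophage sums of 30.8 to 46.4 CPM in SUC1 and 27.7 to 30.3 CPM in SUC3 overlapped those of control. Fibre markers summed to 159823 to 166719 CPM in SUC2 and 164914 to 254975 CPM in control. No marker of any list was at 0 in all libraries. The part of these cells in the FOXO1 and GABARAPL1 differences was not tested.

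Single libraries carried much of the variation. Control replicate 1 was lowest or next to lowest of the 12 for 9 of the 10 genes, MAP1LC3B being the exception, and SUC3 replicate 1 for 6. SUC3 replicate 2 and SUC1 replicate 1 were each highest or next to highest for 5. Without control replicate 1 and SUC3 replicate 2 together, a setting chosen after the values were seen, the SUC3 log2 fold changes of FOXO3, TRIM63, GABARAPL1 and BNIP3 were -0.29, -0.087, -0.19 and -0.013.

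**Figure D3:**
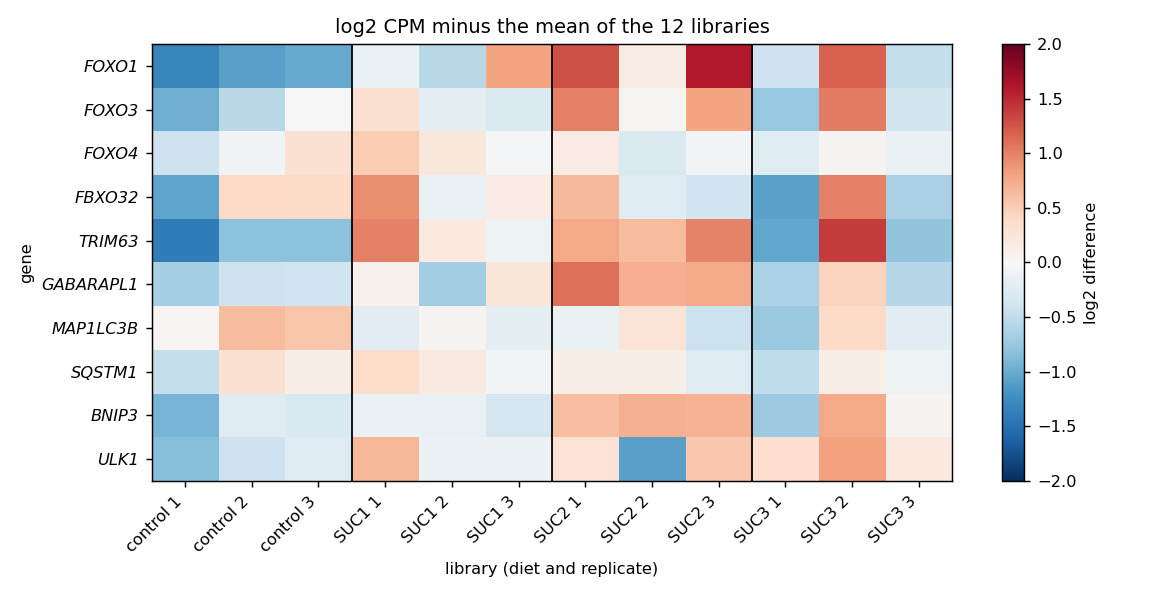
log2 CPM of each gene minus its mean over the 12 libraries, with libraries in columns by diet and replicate (red above the mean, blue below). Control replicate 1 is below the mean for all 10 genes but MAP1LC3B, SUC3 replicate 2 is above it, and the other SUC3 libraries lie mostly below.

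FOXO factors and atrogenes were compared across the 12 libraries in 6 pairs, on log2 CPM. FOXO3 and TRIM63 varied together most closely, with Pearson's r of 0.89 (permutation p = 0.00014, adjusted over the 6 pairs 0.00084) and Spearman's rho of 0.93 (permutation p = 8e-05, adjusted 0.00048). The r was 0.88 without the 2 libraries farthest from the median of FOXO3, and 0.89 on deviations from the diet means (exact permutation within diets, adjusted p = 0.0185). FOXO1 and TRIM63 had r of 0.80 (permutation p = 0.00236, adjusted 0.00484) and rho of 0.78 (permutation p = 0.00382, adjusted 0.00996), with 0.77 without the 2 farthest libraries. On deviations from the diet means their r was 0.59 (exact permutation, adjusted p = 0.150), which did not pass within diets.

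FOXO1 and FOXO3 had r of 0.82 (permutation p = 0.00242, adjusted 0.00484) and rho of 0.77 (permutation p = 0.00498, adjusted 0.00996). Without the 2 farthest libraries and within diets r was 0.70 each time, with adjusted permutation p of 0.0626 and 0.0810. FOXO3 and FBXO32 had r of 0.67 (permutation p = 0.0166, adjusted 0.0250) and rho of 0.67 (permutation p = 0.0198, adjusted 0.0296), and r was 0.87 on deviations from the diet means (exact permutation within diets, adjusted p = 0.0185). Without the 2 libraries farthest from the median of FOXO3, r was 0.49 and no longer passed (permutation, adjusted p = 0.215). The difference between this r and that over all libraries was not tested. FBXO32 and TRIM63 had r of 0.64 (permutation p = 0.0296, adjusted 0.0355) and rho of 0.63 (permutation p = 0.0322, adjusted 0.0387), with 0.83 on deviations from the diet means (exact permutation within diets, adjusted p = 0.0432). Without SUC3 replicate 1 and control replicate 1, the 2 libraries farthest from the median of FBXO32, r was 0.38 and no longer passed (permutation, adjusted p = 0.268). FOXO1 and FBXO32 were not related beyond the spread, with r of 0.36 (permutation p = 0.246, adjusted 0.246) and rho of 0.28 (permutation p = 0.383), with 0.47 without the 2 farthest libraries and 0.56 on deviations from the diet means (exact permutation within diets, adjusted p = 0.150). Over all pairs of the 10 genes, r ran from -0.42 for MAP1LC3B with ULK1 to 0.89 for FOXO3 with TRIM63.

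**Figure D4:**
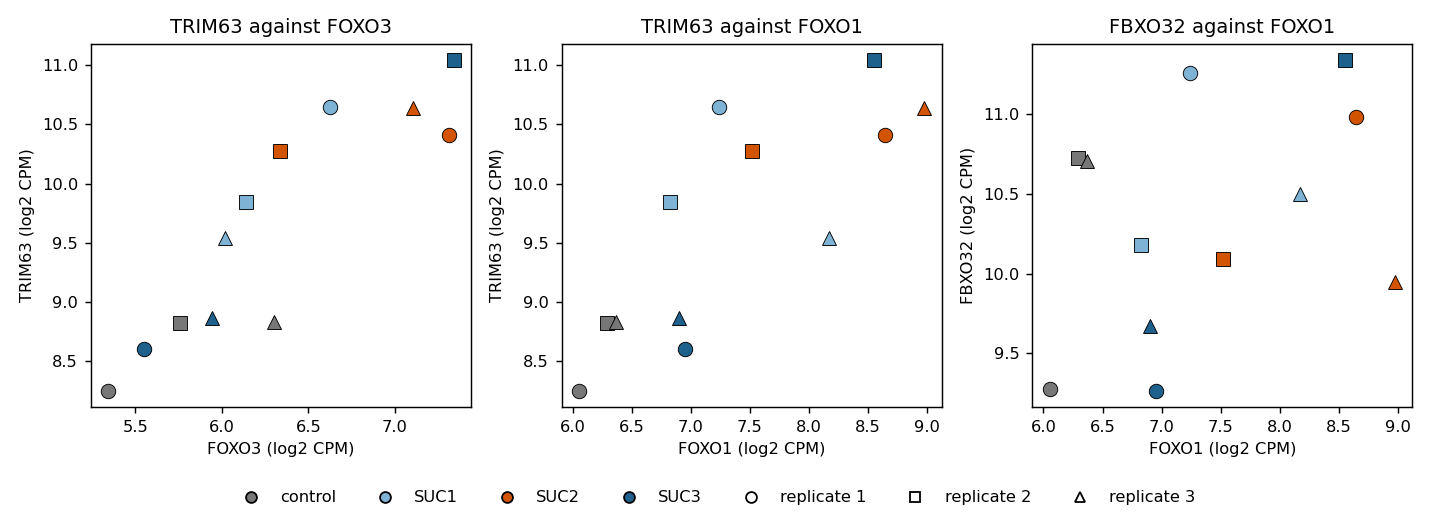
log2 CPM of TRIM63 against FOXO3 (r = 0.89), of TRIM63 against FOXO1 (r = 0.80) and of FBXO32 against FOXO1 (r = 0.36), with 1 point per library coloured by diet and shaped by replicate. The first 2 panels rise from lower left to upper right, and the third shows no such order.

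Genes with the most similar pattern to each of the 10 were searched for among 11268 named genes by Pearson's r of log2 CPM over the 12 libraries, which is a description without a test. FOXO1 was closest to KIAA2013 (0.97), REV1 (0.97) and WDR26 (0.95), FOXO3 to ANO6 (0.94), CABYR (0.93) and PDE7A (0.91), and FOXO4 to MAP3K4 (0.95), LZTS3 (0.90) and DCAF8 (0.89). TRIM63 was closest to JMY (0.92), AHCTF1 (0.91) and PPARD (0.91), and FBXO32 to RAB3GAP2 (0.90), MAPKAP1 (0.90) and OSGIN1 (0.89). GABARAPL1 was closest to WHAMM (0.96), SART3 (0.94) and ZNF410 (0.94). For MAP1LC3B, SQSTM1, BNIP3 and ULK1 the closest genes were TRMT1L (0.94), ZNF70 (0.93), LRRC59 (0.93) and ZFPM2 (0.92).

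In insulin, AKT and mTOR signalling, which restrains FOXO factors, 0 of 29 tested genes passed in SUC1, SUC2 or SUC3. In SUC2 17 were positive, the median log2 fold change was 0.05 and 6 had an unadjusted p under 0.05, against 17.9% of all genes. IRS1, the adaptor of the insulin receptor, was at 20.1 ± 3.97 CPM in SUC2 and 56.8 ± 11.1 CPM in control, without overlap (SD, n = 3 each; log2 fold change -1.50 ± 0.35, edgeR adjusted p = 0.0560). IGF1R, the IGF1 receptor, had -0.81 (edgeR adjusted p = 0.112) and DEPTOR, an inhibitor of mTOR, 1.04 (0.102). In SUC1 DEPTOR was at 1.27 (edgeR adjusted p = 0.349).

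Of 17 tested of 18 other genes known to respond to FOXO, 0 passed in any diet, and in SUC2 9 were positive with a median of 0.03. KLF15 had a log2 fold change of 1.28 in SUC2 (edgeR adjusted p = 0.166), catalase (CAT) -0.44 (0.166), the cell cycle inhibitor CDKN1A 0.97 (0.413) and the repressor BCL6 0.32 (0.533). Other diets differed: CDKN1A was at -2.01 in SUC1 (edgeR adjusted p = 0.384) and BCL6 at -0.65 in SUC3 (0.302). KLF15 was at 1.46 in SUC1 (edgeR adjusted p = 0.449). Among 31 other ubiquitin ligases and ubiquitin genes 0 passed in any diet, although 11 had an unadjusted p under 0.05 in SUC2 (17.9% of all genes did), and 17 were positive with a median of 0.04. KLHL40, which stabilises thin-filament proteins, was at 1.33 (edgeR adjusted p = 0.0555), the ligase NEDD4 at -1.11 (0.0729) and FBXL22 at -2.11 (0.0802), the last with 0.379 CPM in SUC2 and 1.66 CPM in control. The relatives of TRIM63, TRIM54 and TRIM55, had 1.01 (edgeR adjusted p = 0.101) and -0.63 (0.210).

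For autophagy outside the 10 genes, 0 of 20 initiation genes, 0 of 14 tested of 15 ATG8 and conjugation genes, 0 of 17 cargo and mitophagy receptors and 0 of 27 tested of 30 lysosomal genes passed in SUC1, SUC2 or SUC3. In SUC2 9 of 20, 5 of 14, 6 of 17 and 13 of 27 were positive, with medians of -0.06, -0.06, -0.07 and -0.0023 on the log2 scale. An unadjusted p under 0.05 was reached there by 0, 0, 1 and 3 genes. The ATG8 relatives of GABARAPL1 stood near 0 in SUC2: GABARAP at -0.14, GABARAPL2 at -0.08 and MAP1LC3A at 0.19 (edgeR adjusted p = 0.756, 0.870 and 0.666). The conjugation genes ATG12, ATG3 and ATG4D were at -0.12, 0.35 and 0.07. BNIP3L, the relative of BNIP3, was at -0.32 (edgeR adjusted p = 0.413), and among receptors OPTN, TOLLIP, WDFY3 and PHB2 were at -0.40, 0.39, -0.34 and -0.16. The initiation genes WIPI1, UVRAG, WDR45 and AMBRA1 were at -0.48, 0.12, -0.21 and 0.19. UVRAG was at -0.27 in SUC1 and -0.40 in SUC3 (edgeR adjusted p = 0.825 and 0.400). In SUC2 the lysosomal genes SCARB2, RRAGD, MITF and NPC1 were at -0.50, -0.68, -0.38 and 1.34, with edgeR adjusted p of 0.187, 0.194, 0.413 and 0.270. The differences between GABARAPL1 and its relatives were not tested.

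**Figure D5:**
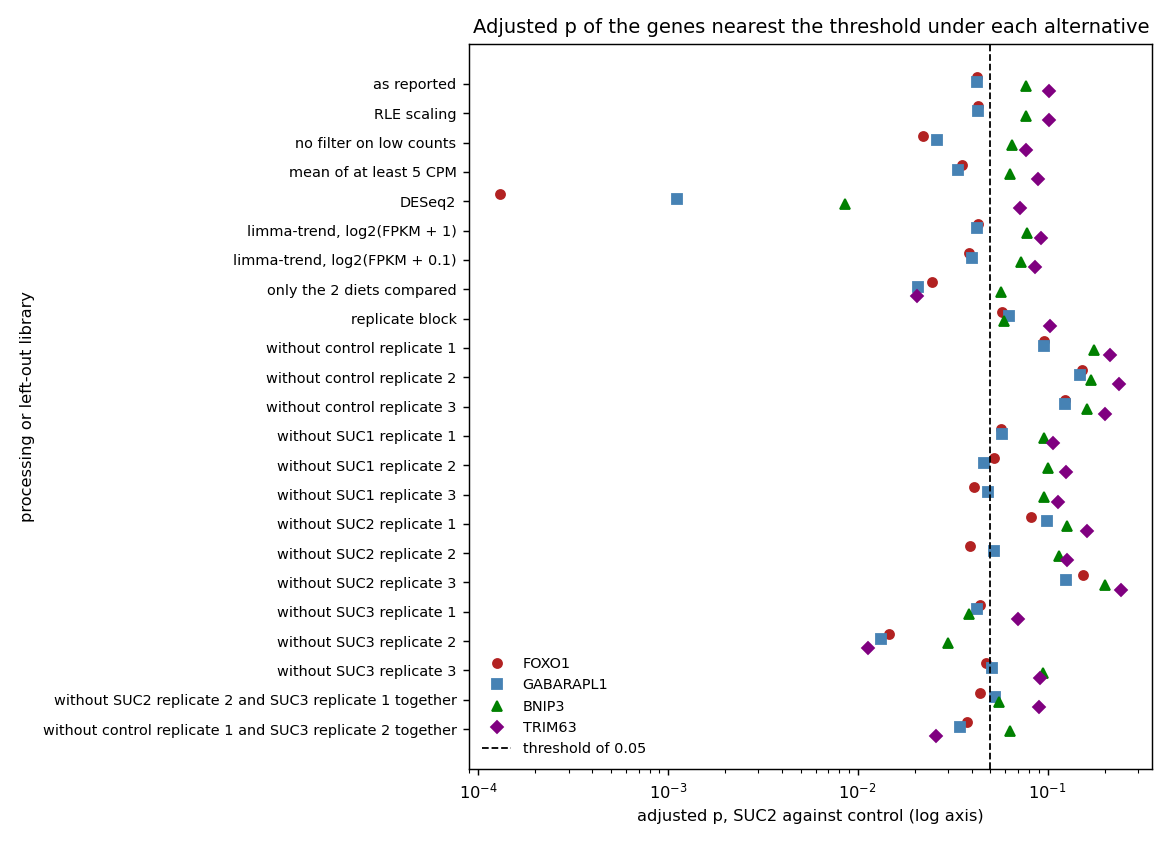
Adjusted p (log axis) for SUC2 against control of FOXO1, GABARAPL1, BNIP3 and TRIM63 in the analysis as reported and under each alternative processing or left-out library, with a dashed line at 0.05. FOXO1 and GABARAPL1 lie on both sides of the line, with adjusted p up to 0.154 and 0.148.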

How the data were processed

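The table of read counts per gene was used as deposited by the authors, with whole-number counts for 12 libraries; the FPKM values deposited beside them equalled counts scaled for length and column total (largest relative difference 5.1e-15) and were used for levels between genes and in alternative fits. Mouse builds, GRCm38 and mm10, appear in the labels per the submitters' processing notes, while the deposited table held sheep genes. The table names no build, so its coordinates are printed as given, with chromosome names taken by gene identifier from RefSeq (ARS-UI_Ramb_v3.0), which 20874 genes matched. The aligner, the counter and the use of strand were not given in the sources used here.

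Genes were filtered with filterByExpr, scaled by TMM (factors 0.857 to 1.10) and fitted with the quasi-likelihood model of edgeR 4.0.16 in R 4.3.3, diet being the only factor (8 residual degrees of freedom). Adjustment was by Benjamini-Hochberg over 13319 genes with a threshold of 0.05. The SE was derived from F as the size of the log2 fold change divided by its root. Alternatives were DESeq2 1.42.0, limma 3.58.1 on log2(FPKM + 1) and log2(FPKM + 0.1), RLE scaling, other filters, the 2 diets alone, a replicate block and left-out libraries. The procedure was tested on simulated counts. Correlations used 100000 resamples.

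The 10 genes, 19 gene lists and tests were chosen with earlier results of these data known. From each of the 10 lists that are not cell markers up to 4 genes were named by smallest p in any diet against control, plus close relatives of the 10 genes, and for each of the 10 up to 3 genes by likeness. Results for 2 genes that this rule named are left out here. No libraries were duplicates. The labels do not say what a replicate number shared between diets means, so it was not used as a pair in the main fit. Libraries with the same number had correlations of deviations from -0.172 to 0.169. They were not compared with libraries of different numbers, so whether shared numbers mark a block was not tested. No promoter or protein sequence was used here.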

Additional observations from a re-analysis of the deposited data

How the results depend on the processing

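With 191 genes called in SUC2 against control, DESeq2 called 841 and the replicate block 122. In SUC1, where edgeR called 0 genes (1014 at an unadjusted p under 0.05), DESeq2 called 70 and the fit to 2 diets alone 8. In SUC3, where edgeR called 1, DESeq2 called 241, no filter on low counts 3, a mean of at least 5 CPM 4, and limma on FPKM and the replicate block 0. For SUC2 against SUC1 (0 by edgeR, 1142 unadjusted) DESeq2 called 42, limma 2 and 1, and no filter or the replicate block 1. For SUC3 against SUC1 (0 by edgeR, 974 unadjusted) DESeq2 called 65. For SUC3 against SUC2 (2 by edgeR) DESeq2 called 239, no filter 6, limma 4, the 2 diets alone 5 and the replicate block 1. The joint test called 3 genes by edgeR, 798 by DESeq2, 105 without filter and 5 by limma. The slope called 1 by edgeR, 124 by DESeq2, 2 at a mean of 5 CPM and 0 by limma or the replicate block. Leaving out single libraries gave 0 to 7 genes in SUC1, 0 to 332 in SUC2 (0 without control replicate 2 or 3 or SUC2 replicate 3, 80 without SUC1 replicate 2, 82 when SUC2 replicate 1 was left out, 115 for SUC3 replicate 3 and 332 for SUC3 replicate 2), 0 to 11 in SUC3, 0 to 1 for SUC2 against SUC1, 0 to 2 for SUC3 against SUC1, 1 to 66 for SUC3 against SUC2, 0 to 85 jointly and 0 to 12 for the slope. Without SUC2 replicate 2 and SUC3 replicate 1 together, SUC1 had 1, SUC3 2, SUC3 against SUC1 1 and the slope 0. Without control replicate 1 and SUC3 replicate 2 together, SUC1 had 10, SUC3 8, SUC3 against SUC1 3, SUC3 against SUC2 50, the joint test 108 and the slope 0. Both settings were chosen after seeing the data, and the cause of these shifts was not tested.

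Of the 10 genes, the 2 called in SUC2 became 0 with the replicate block (adjusted p of 0.0577 for FOXO1 and 0.0626 for GABARAPL1) and 1 without SUC2 replicate 2 and SUC3 replicate 1 together, and 0 to 4 without single libraries. SUC3 against SUC2 called 1 by DESeq2, 2 without control replicate 1 and SUC3 replicate 2 together, and 0 to 2 without single libraries. The joint test called 3 by DESeq2, 2 without that pair, and 0 to 2 without single libraries. The other calls on the 10 genes did not change with the replicate block.

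The sign turned in the following log2 fold changes, none of which had passed. With limma on FPKM the SUC2 values were 0.066 and 0.071 for FOXO4 and 0.0845 and 0.0851 for SQSTM1, and the SUC3 values 0.012 and 0.015 for FOXO4 and -0.0835 and -0.0839 for FBXO32. With the replicate block SQSTM1 was 0.0027 in SUC2 and FBXO32 -0.092 in SUC3. Without SUC2 replicate 2 and SUC3 replicate 1 together FOXO4 was 0.088 in SUC2, SQSTM1 0.0019 in SUC3 and the FBXO32 slope 0.14. Without control replicate 1 and SUC3 replicate 2 together SQSTM1 was -0.040 in SUC1, FBXO32 -0.30 and ATG4D -0.092 in SUC2, and FOXO3 -0.29, FBXO32 -1.23, TRIM63 -0.087, GABARAPL1 -0.19 and BNIP3 -0.013 in SUC3, with slopes of -0.070 for FOXO3 and -0.19 for TRIM63. Without single libraries the ranges were -0.026 to 0.56 for FBXO32 and -0.041 to 0.32 for SQSTM1 in SUC1. In SUC2 they were -0.18 to 0.19 for FOXO4, -0.35 to 0.26 for FBXO32, -0.21 to 0.15 for SQSTM1, -0.38 to 0.0041 for WDR45, -0.020 to 0.32 for AMBRA1, -0.34 to 0.012 for ATG12, -0.093 to 0.30 for ATG4D and -0.26 to 0.026 for GABARAPL2. In SUC3 they were -0.094 to 0.95 for FOXO3, -0.23 to 0.15 for FOXO4, -0.89 to 0.36 for FBXO32, -0.11 to 0.51 for GABARAPL1 and -0.35 to 0.0086 for SQSTM1, and for the FBXO32 slope -0.48 to 0.12.

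Among the relations, deviations from the diet means gave r of 0.59 for FOXO1 with TRIM63 and 0.70 for FOXO1 with FOXO3. Without the 2 farthest libraries r was 0.49 for FOXO3 with FBXO32, 0.38 for FBXO32 with TRIM63 and 0.70 for FOXO1 with FOXO3. Without control replicate 1 and SUC3 replicate 2 together r was 0.71 for FOXO1 with TRIM63, 0.46 for FOXO3 with FBXO32, 0.41 for FBXO32 with TRIM63 and 0.74 for FOXO1 with FOXO3, and each of these no longer passed. FOXO3 with TRIM63 passed in all of them. With 3 libraries a diet, genes that did not pass may still differ.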

Other observations

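Genes that respond to stress hormones and to unfolded proteins had positive medians at 0.5% and 1% succinate. Of 10 tested glucocorticoid-responsive genes 0 passed in any diet, but 8 were positive in SUC2 with a median log2 fold change of 0.76, and 8 had an unadjusted p under 0.05, where 49.8% of all genes were positive and 17.9% had such a p. CEBPD was at 166 ± 31.2 CPM in SUC2 and 56.5 ± 16.4 CPM in control, and CEBPB at 133 ± 14.2 CPM in SUC2 and 74.7 ± 17.2 CPM in control (SD, n = 3 each; edgeR adjusted p = 0.0662 and 0.0790). FKBP5 was at 1490 ± 341 CPM in SUC2 and 611 ± 302 CPM in control, and KLF9 at 315 ± 23.5 CPM in SUC2 and 203 ± 37.6 CPM in control (edgeR adjusted p = 0.160 and 0.164). In SUC1 9 of these 10 were positive, with a median of 0.53, and in SUC3 3 were, with a median of -0.06. Over all genes 48.3% were positive in SUC1 and 49% in SUC3. Of 12 tested heat shock genes 12 were positive in SUC2 with a median of 0.81, and 2 passed, against 1.43% of all genes. In both SUC1 and SUC3 9 of the 12 were positive, with medians of 0.31 and 0.27. The endoplasmic reticulum chaperone HSPA5 was at 183 ± 36.4 CPM in SUC2 and 77.6 ± 2.45 CPM in control (log2 fold change 1.24 ± 0.20, edgeR adjusted p = 0.0213). The co-chaperone DNAJA1 was at 209 ± 70.1 CPM in SUC2 and 67.1 ± 22.7 CPM in control (1.64 ± 0.36, edgeR adjusted p = 0.0423). Of 22 alternatives, the HSPA5 call was lost without control replicate 2 or 3 or SUC2 replicate 3 (edgeR adjusted p up to 0.102). The DNAJA1 call was lost under 8, 6 of which left out a single library: replicate 2 or 3 of control, replicate 2 of SUC1, replicate 2 or 3 of SUC2, and replicate 3 of SUC3 (edgeR adjusted p up to 0.160). HSPH1 and BAG3 had 1.46 and 1.11 (edgeR adjusted p = 0.0526 and 0.0573). Of 12 immediate early genes 0 passed in any diet, and in SUC2 11 were positive with a median of 0.60. In SUC1 10 were positive and in SUC3 8, with medians of 0.26 and 0.30.

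Ratios of FPKM within a library, which do not depend on scaling between libraries, were looked at for 3 pairs. The pairs were chosen after their values were seen, so no test is given. Each set a gene whose SUC2 libraries all lay above control over a gene whose libraries overlapped control. That choice itself favours a separation of the ratios from control. TRIM63 over FBXO32 was 1.25, 2.10 and 2.996 in SUC2, and 0.915, 0.498 and 0.505 in control. In SUC1 it was 1.22, 1.47 and 0.956 and in SUC3 1.18, 1.51 and 1.06, so all 9 succinate libraries lay above all 3 control libraries. FOXO1 over FOXO4 was 2.55, 1.60 and 3.73 in SUC2 and 0.633, 0.590 and 0.475 in control. In SUC1 it was 0.754, 0.686 and 2.11 and in SUC3 1.05, 2.56 and 0.935, again all above control. GABARAPL1 over MAP1LC3B was 1.08, 0.624 and 1.04 in SUC2 and 0.283, 0.222 and 0.235 in control. In SUC1 it was 0.567, 0.274 and 0.617, with replicate 2 within the control range, and in SUC3 0.497, 0.476 and 0.359. SUC3 replicate 2, the library with the highest TRIM63 and FBXO32 levels, had a TRIM63 over FBXO32 ratio within the range of the other succinate libraries.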
